A study of Homo sapiens with 12 samples.

Results

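Molecular chaperones of the cytosol, the mitochondrion and the endoplasmic reticulum (ER) were followed in newly made RNA of U2OS-MycER cells. The set was a fixed list of 46 genes, taken as the rows of the count table whose Entrez identifiers carry these symbols. All 46 were found among the 23434 genes of the table. Of these, 27 belong to the cytosol, 4 to the mitochondrion and 15 to the ER. The list includes 4 regulators that are not chaperones themselves (HSF1, XBP1, ATF6 and ERN1) and HERPUD1, a factor of ER-associated degradation.

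U2OS is an osteosarcoma cell line, and MycER is a Myc protein joined to a domain of the oestrogen receptor, so that 4-hydroxytamoxifen (OHT) switches it on. There were 12 libraries, 3 in each of 4 groups. The shNT group carried a non-targeting shRNA without OHT, and the shNT_OHT group carried the same shRNA with 300 nM OHT for 40 h. The shCDK12 group carried an shRNA against CDK12 without OHT, and the shCDK12_OHT group carried it with the same OHT treatment. All groups shared 1 µg/mL doxycycline to switch on the shRNA, mitotic arrest with 100 ng/mL nocodazole for 8 h, collection of the arrested cells by shake-off, release for 12 h, and 0.5 mM of the uridine analogue 5-ethynyluridine (EU) over the last 2 h. The RNA that had taken up EU was then captured and sequenced (EU-seq). Every library is recorded with 40 µg of human RNA and 10 µg of mouse RNA. The labels name a single line and do not say how many shRNA sequences were used, nor whether the 3 libraries of a group came from separate cultures, so a p-value here measures only the spread between these libraries. The questions were how chaperone genes answered OHT under each shRNA, how they differed between the shRNAs, and whether the compartments behaved alike.

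Chaperones bind unfolded proteins and help them fold, assemble or be degraded. In the cytosol, prefoldin and the ring-shaped TRiC/CCT chaperonin fold actin, tubulin and other new proteins, while the HSP70 and HSP90 machines act on a wide range of clients, and heat shock factor 1 (HSF1) raises the stress-inducible members by binding heat shock elements in their promoters. In the mitochondrion, HSPA9 pulls proteins through the import channel, and HSPD1 with its lid HSPE1 folds them. In the ER, HSPA5 (BiP) and HSP90B1 (GRP94) fold secreted proteins, and the sensors ATF6 and ERN1 (IRE1) together with the transcription factor XBP1 raise ER chaperones during the unfolded protein response (UPR), partly through the ER stress response element.

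These known control sequences were looked for in the promoter windows of RefSeq (build GRCh38.p14), each running from 250 bases before to 50 bases after a transcription start. At least 1 window was found for 41 of the 46 genes. The heat shock element was searched as 3 units, GAANNTTCNNGAA or TTCNNGAANNTTC, and as 2 units, GAANNTTC or TTCNNGAA, where the 3-unit form contains the 2-unit form. The ER stress response element was searched as CCAAT, then 9 bases of any kind, then CCACG. Both strands were read. The stretches below are shown because they hold the known elements of the heat shock and ER stress responses in members whose levels are described later, with the motif in capitals, read 5′ to 3′ on the strand of the gene.

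First, 5 genes of the cytosol and mitochondrion are given with their heat shock element, as 2 units for HSPA1A and HSPA1B and as 3 or more units for the others.
HSPA1A: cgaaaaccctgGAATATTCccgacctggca
HSPA1B: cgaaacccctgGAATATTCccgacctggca
HSPA8: cgggccccTTCTGGAAGGTTCtaagatag
HSP90AB1: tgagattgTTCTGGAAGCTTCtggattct
HSPD1: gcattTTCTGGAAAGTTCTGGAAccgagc
These lie at chr6:31815426-31815455 (+), chr6:31827622-31827651 (+), chr11:123062171-123062199 (-), chr6:44247823-44247851 (+) and chr2:197500062-197500090 (-). The capitals begin 106, 105, 55, 112 and 245 bases before the start of the gene, in that order.

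Next, 4 ER genes are given with their ER stress response element. In CALR the element runs on the opposite strand, so its letters read as the reverse complement.
HSPA5: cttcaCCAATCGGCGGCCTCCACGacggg
HSP90B1: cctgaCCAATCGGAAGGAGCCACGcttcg
XBP1: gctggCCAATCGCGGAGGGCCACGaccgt
CALR: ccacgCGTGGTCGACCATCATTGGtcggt
These lie at chr9:125241386-125241414 (-), chr12:103930211-103930239 (+), chr22:28800598-28800626 (-) and chr19:12938379-12938407 (+), with the capitals beginning 66, 194, 52 and 225 bases before the start.

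The ER stress response element was present in 6 of the 14 ER genes with a window (CALR, CANX, HSP90B1, HSPA5, PDIA6 and XBP1), in 0 of 23 cytosolic genes and in 0 of 4 mitochondrial genes. Counted in the same way, with any window of a gene, it was present in 0.0916% of 27305 genes, and in 0.0769% of all 35116 windows. The 3-unit heat shock element was present in 4 cytosolic genes (DNAJA1, HSP90AA1, HSP90AB1 and HSPA8), in HSPD1 and in 0 of the 14 ER genes, against 0.608% of all genes. The 2-unit form was present in 13 of 23 cytosolic, 2 of 4 mitochondrial and 1 of 14 ER genes, against 16.2% of all genes. The Myc-type E-box CACGTG was present in 0 of 23 cytosolic genes, in HSPA9, HSPD1 and HSPE1 among the 4 mitochondrial genes, and in 4 of 14 ER genes (CANX, DNAJB9, HERPUD1 and HSP90B1), against 8.77% of all genes. A match describes the letters only and was not tested as a binding site.

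The libraries held 1251695 to 10447836 counts each, and the shNT_OHT group was the shallowest. Levels are given as CPM, which are counts set to a common library total after TMM scaling, and 45 or 46 of the 46 genes passed the filter of a mean normalised count above 32, depending on the comparison. No reads of the added mouse RNA were in the table, so levels could not be scaled to it. A change of total new RNA therefore cannot be seen, and every level is relative to the rest of the library. CDK12 itself was at 323, 289 and 300.2 CPM in shNT, 434, 356 and 400.5 CPM in shNT_OHT, 293, 277 and 298 CPM in the libraries labelled shCDK12, and 215, 208 and 218 CPM in those labelled shCDK12_OHT. Its new RNA was therefore lower with the CDK12 shRNA in the OHT-treated libraries (log2 fold change -0.88 ± 0.11 (SE), adjusted p = 0.000107), whereas the untreated groups overlapped (log2 fold change -0.08 ± 0.08 (SE), adjusted p = 0.445), and every direction given for shCDK12 rests on the label. CDK12 rose with OHT under shNT (log2 fold change 0.38 ± 0.12 (SE), edgeR adjusted p = 0.0347). Under shCDK12 it fell with OHT (log2 fold change -0.44 ± 0.07 (SE), adjusted p = 9.59e-05), and its interaction was -0.83 ± 0.13 (SE), adjusted p = 4.42e-05. MYC, also set as a label check, was lower in shCDK12 than in shNT (log2 fold change -0.90 ± 0.08 (SE), edgeR adjusted p = 2.3e-10). With OHT it rose under shCDK12 (log2 fold change 0.88 ± 0.07 (SE), adjusted p = 5.33e-08) and did not pass under shNT (log2 fold change -0.09 ± 0.10 (SE), adjusted p = 0.574). The interaction of MYC was 0.96 ± 0.13 (SE), adjusted p = 8.25e-06, and its part in the chaperone responses was not tested. MycER also holds Myc sequence, so reads counted for MYC may come from the gene, from MycER or from both. VIM, SPARC, RUNX2 and COL1A1, genes of mesenchymal and bone-forming cells, stood at 44 CPM or more in every library, while COL1A2 stayed at or below 1.16 CPM and ALPL at or below 8.02 CPM. Markers of epithelial cells (EPCAM, CDH1 and KRT5) summed to 9.52 to 12.4 CPM in shNT, 9.90 to 12.8 in shNT_OHT, 14.3 to 15.5 in shCDK12 and 9.92 to 12.2 in shCDK12_OHT, and those of blood cells (PTPRC, CD34 and CD3E) to 5.62 CPM or less, with PTPRC and CD3E at 0 in several libraries. The 6 mesenchymal markers summed to 836 to 926 CPM in shNT, 668 to 712 in shNT_OHT, 366 to 373 in shCDK12 and 462 to 479.6 in shCDK12_OHT. These shifts run beside the differences between the groups, and their part in them was not tested. The spans of 16 of the 46 genes overlap another gene of the table, such as HSPE1 with the readthrough gene HSPE1-MOB4, and the strand setting of the counting is not given in the sources used here, so reads of such pairs may have been mixed.

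Chaperone genes that passed the test with OHT were higher under the control shRNA and, with 1 exception, lower under the CDK12 shRNA. In shNT_OHT against shNT, 15 of the 45 tested genes rose and 0 fell, where 9.37% of all tested genes rose and 8.49% fell (edgeR quasi-likelihood test, adjusted p under 0.05). In shCDK12_OHT against shCDK12, 23 of 46 fell and 1 rose, where 21.6% of all genes fell and 27.6% rose. DESeq2 called 16 higher and 0 lower under shNT, where it called 10.7% of all genes higher and 7.94% lower. At an unadjusted p under 0.05, 20 rose and 0 fell under shNT, and the share of all genes at that threshold was not counted. These comparisons share no library. The interaction, which is the log2 response to OHT under shCDK12 minus that under shNT, was below 0 in 24 of 46 genes and above 0 in 0 among those that passed the test, where 20.0% of all genes passed below 0 and 26.1% above 0. With DESeq2 these counts were 26 and 0, where 22.7% of all genes passed below 0 and 24.3% above 0. At an unadjusted p under 0.05 they were 26 and 0, and the share of all genes at that threshold was not counted. Of the 45 genes tested in both, 31 had a positive log2 fold change under shNT and a negative one under shCDK12, 3 the opposite and 11 the same sign. Over 9952 genes tested in both, 3198 (32.1%) had the first pattern, 3892 the opposite and 2862 the same sign. In RNA pooled from many cells, fewer cells making a transcript and less of it per cell cannot be told apart.

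**Figure D1:**
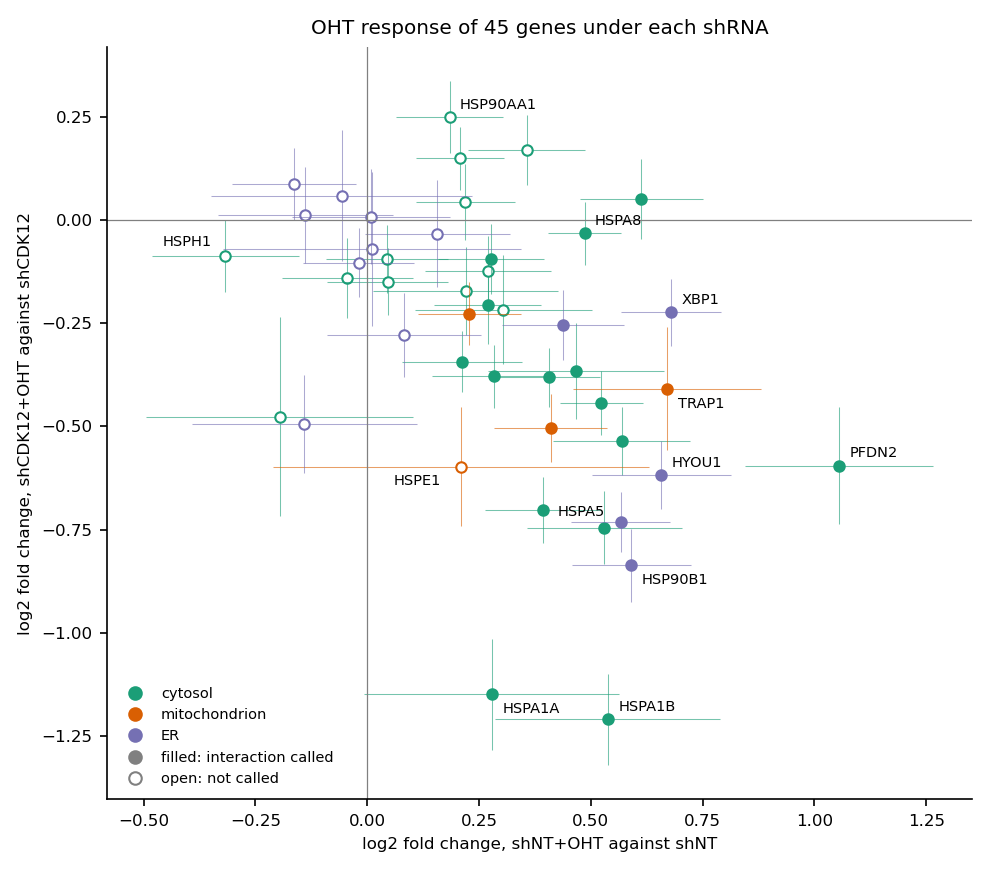
log2 fold change with OHT in the libraries labelled shCDK12 (vertical) against that in shNT (horizontal) for 45 genes, with standard errors as bars, coloured by compartment and filled where the interaction passed an adjusted p of 0.05. The lower right field holds 31 of the 45 points, HSPA1A and HSPA1B lie lowest and PFDN2 lies farthest to the right.

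Of the 15 genes that rose under shNT, 5 did so in every alternative run (HSP90AB1, HSPA5, HSPA8, PFDN2 and XBP1), and the count depended on single libraries. The count was 6 without shNT replicate 1, 7 without shNT replicate 2 and 7 without shNT replicate 3, where 4.66%, 4.08% and 4.65% of all genes rose. Fold changes in this comparison also ran with gene length and base composition across 9970 genes, with r = -0.296 for log10 of the gene span and r = 0.277 for GC content, and the 46 genes have a median span of 16907 bp against 30429 bp for all genes tested in the interaction. After such trends were removed, 13 of 45 rose and 0 fell, where 10.5% of all genes rose, and the log2 fold changes of HSPA8 and HSP90AB1 were 0.25 and 0.31 in place of 0.49 and 0.52. In the interaction the correlations were 0.217 and -0.14, and after removal 24 of 46 passed below 0 and 0 above, where 23.8% of all genes passed below 0.

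Without OHT, the libraries labelled shCDK12 differed from shNT in both directions. Of the 46 genes, 23 were higher and 9 lower, where 29.8% of all genes were higher and 32.8% lower. With OHT, 21 were lower and 4 higher in shCDK12_OHT than in shNT_OHT, where 22.2% of all genes were lower and 24.0% higher. The 4 higher genes were HSPA1A, HSPA1B, HSPH1 and DNAJB9. Each of these comparisons shares a group with both OHT comparisons, so the counts are not independent of them.

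**Figure D2:**
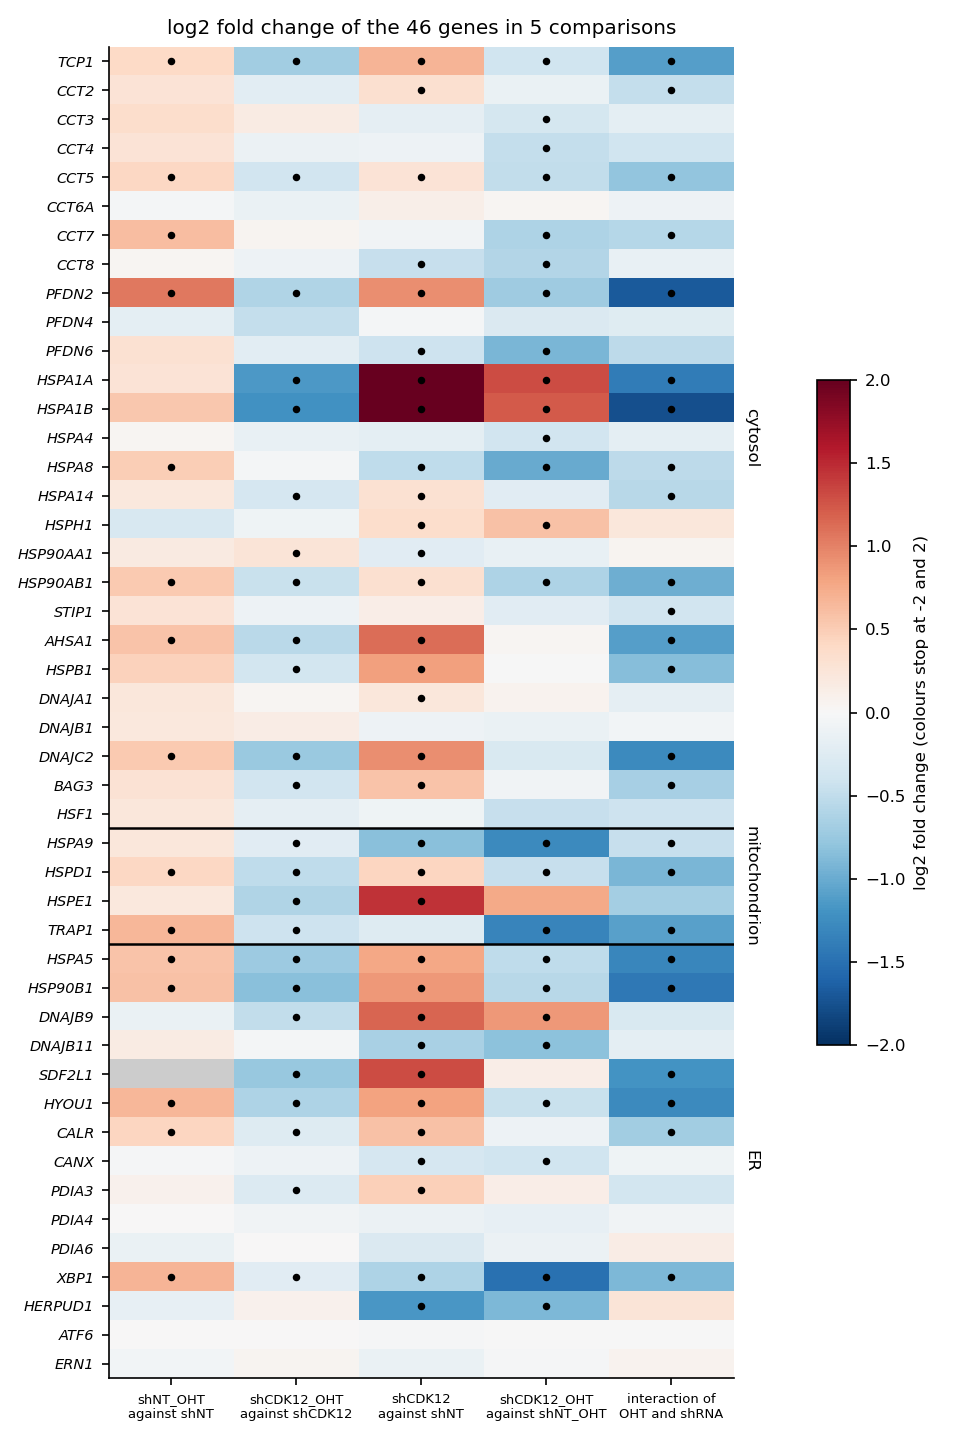
log2 fold change of each of the 46 genes (rows, by compartment and role) in the 5 comparisons (columns), red for higher and blue for lower, with a dot where the adjusted p was under 0.05 and grey where the gene was not tested. The first column has dots on red cells only, the last on blue cells only, and HSPA1A and HSPA1B are the darkest red in shCDK12 against shNT.

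The stress-inducible HSP70 genes HSPA1A and HSPA1B had the largest fold changes of the 46 genes in shCDK12 against shNT. Their coding sequences differ at 4 of 1923 bases in GRCh38, so reads cannot be split between them with certainty and each level is uncertain. How reads that match both genes were counted is not known here, so their sum is uncertain too. HSPA1A stood at 13.1, 12.9 and 10.5 CPM in shNT, 14.7, 18.1 and 13.0 in shNT_OHT, 68.3, 86.4 and 87.3 in shCDK12 and 42.5, 38.3 and 27.8 in shCDK12_OHT. Both groups labelled shCDK12 lay above both shNT groups, and the OHT-treated one was the lower of these 2. HSPA1B stood at 18.0, 26.5 and 26.1 CPM in shNT, 42.6, 31.3 and 27.5 in shNT_OHT, 157, 214 and 174 in shCDK12 and 77.0, 87.4 and 71.1 in shCDK12_OHT. The order of the groups was the same as for HSPA1A. Without OHT, HSPA1A was 6.5-fold higher in shCDK12 than in shNT (SE of 0.16 on the log2 scale, adjusted p = 4.99e-13) and HSPA1B 7.83-fold (log2 fold change 2.97 ± 0.15 (SE), adjusted p = 8.71e-15). Summed over both genes, the mean was 35.7 ± 4.20 CPM (SD, n = 3) in shNT and 262 ± 37.5 in shCDK12, a 7.34-fold difference. With OHT the summed means were 49.1 ± 8.37 CPM and 115 ± 14.1, a 2.33-fold difference. The drop with OHT under shCDK12 reached log2 fold change -1.15 ± 0.14 (SE), adjusted p = 2.15e-06 for HSPA1A and log2 fold change -1.21 ± 0.11 (SE), adjusted p = 1.12e-07 for HSPA1B.

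HSPA8, the constitutive cytosolic HSP70, moved the other way between the shRNAs. It stood at 2862, 3019 and 2725 CPM in shNT, 3972, 3916 and 4194 in shNT_OHT, 2032, 1939 and 2071 in shCDK12 and 1821, 1931 and 2157 in shCDK12_OHT. The shNT_OHT libraries were above all others, and the groups labelled shCDK12 overlapped each other below shNT. HSPA8 rose with OHT under shNT (log2 fold change 0.49 ± 0.08 (SE), adjusted p = 0.00142), did not pass under shCDK12 (log2 fold change -0.03 ± 0.08 (SE), adjusted p = 0.748), and was lower in shCDK12 than in shNT (log2 fold change -0.51 ± 0.07 (SE), adjusted p = 4.16e-07). Among the other members of this group, HSPH1, an HSP110 that recharges HSP70 with nucleotide, was higher with the CDK12 shRNA both without OHT (log2 fold change 0.35 ± 0.10 (SE), adjusted p = 0.00464) and with it (log2 fold change 0.59 ± 0.16 (SE), adjusted p = 0.00949). HSPA4 had values of -0.20 and -0.38 in these comparisons and passed only with OHT. HSPA14, an HSP70 that works at the ribosome with DNAJC2, was 216, 237 and 195 CPM in shNT and 264, 277 and 260.0 in shCDK12 and had an interaction of -0.55 ± 0.15 (SE), adjusted p = 0.00655.

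HSP90AB1, the constitutive cytosolic HSP90, rose with OHT under shNT and fell with it under shCDK12. It stood at 1819, 1837 and 1631 CPM in shNT, 2658, 2308 and 2649 in shNT_OHT, 2336, 1966 and 2352 in shCDK12 and 1565, 1658 and 1669 in shCDK12_OHT. The log2 fold changes with OHT were 0.52 ± 0.09 (SE) and -0.44 ± 0.08, and the interaction was -0.97 ± 0.13 (SE), adjusted p = 5.26e-06. HSP90AA1, the inducible isoform, did not share this pattern, with an interaction of 0.06 ± 0.16 (SE), adjusted p = 0.775. It was the 1 gene that rose with OHT under shCDK12 (log2 fold change 0.25 ± 0.09 (SE), adjusted p = 0.0228), a call lost under DESeq2, upper-quartile scaling, the fit of all 12 libraries and removal of the length and GC trends, and without shCDK12 replicate 3 or shCDK12_OHT replicate 3. AHSA1, which speeds up the ATPase of HSP90, stood at 79.9, 77.7 and 65.2 CPM in shNT, 99.3, 125 and 110.5 in shNT_OHT, 174, 157 and 157 in shCDK12 and 109, 111 and 116 in shCDK12_OHT. Its groups did not overlap except that the OHT-treated groups overlapped each other, and it was higher in shCDK12 than in shNT (log2 fold change 1.11 ± 0.10 (SE), adjusted p = 1.4e-09). STIP1, the adaptor between HSP70 and HSP90, passed only in the interaction (-0.38 ± 0.14 (SE), adjusted p = 0.0358), and that call was lost in 9 of 19 alternatives.

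Among the co-chaperones, DNAJC2, a J-protein at the ribosome, stood at 71.9, 61.5 and 49.6 CPM in shNT, 77.4, 89.9 and 99.8 in shNT_OHT, 115, 127 and 113 in shCDK12 and 71.5, 71.7 and 69.3 in shCDK12_OHT. It was lower with OHT in every library under shCDK12 (log2 fold change -0.75 ± 0.09 (SE), adjusted p = 2.44e-06). BAG3, a nucleotide exchange factor of HSP70 that also serves autophagy, stood at 209, 177 and 143 CPM in shNT, 214, 215 and 219 in shNT_OHT, 283, 252 and 260.2 in shCDK12 and 209, 199 and 203 in shCDK12_OHT. The shCDK12 libraries were above all others (log2 fold change 0.57 ± 0.10 (SE), adjusted p = 3.5e-05). HSPB1, the small heat shock protein HSP27, stood at 65.1, 50.5 and 66.2 CPM in shNT, 99.9, 60.2 and 85.8 in shNT_OHT, 101, 112 and 105 in shCDK12 and 90.3, 92.1 and 63.7 in shCDK12_OHT. It was higher in shCDK12 than in shNT (log2 fold change 0.83 ± 0.12 (SE), adjusted p = 2.98e-06), and its interaction (-0.86 ± 0.24 (SE), adjusted p = 0.00584) was lost when length and GC trends were removed. DNAJB1, the J-protein partner of HSP70 in the heat shock response, passed in 0 of the 5 comparisons by edgeR, at an unadjusted p under 0.05 or by DESeq2, with log2 fold changes from -0.14 to 0.21. DNAJA1 passed only in shCDK12 against shNT (log2 fold change 0.23 ± 0.09 (SE), adjusted p = 0.028), with overlapping groups.

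HSF1, the factor that controls the heat shock response, passed in 0 of the 5 comparisons by edgeR, with 1 at an unadjusted p under 0.05. It stood at 75.4, 56.0 and 73.2 CPM in shNT, 104, 61.9 and 69.0 in shNT_OHT, 63.9, 66.6 and 61.6 in shCDK12 and 62.5, 58.9 and 48.6 in shCDK12_OHT. The groups overlapped in every comparison, and the activity of the HSF1 protein was not measured. The most negative log2 fold change of HSF1 was in shCDK12_OHT against shNT_OHT (log2 fold change -0.47 ± 0.19 (SE), adjusted p = 0.0647), where DESeq2 gave an adjusted p of 0.0495. HSF2, a related factor outside the 46, was higher in shCDK12 than in shNT (log2 fold change 0.67 ± 0.13 (SE), adjusted p = 7.14e-05).

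The TRiC/CCT chaperonin is a ring of 8 different subunits, all of them in the set, and the subunits differed in direction between the shRNAs. Under shNT, 3 of 8 rose with OHT, where 9.37% of all genes did. Without shNT replicate 1 the count was 0 of 8, where 4.66% of all genes rose. It was 1 of 8 without shNT replicate 2, shNT replicate 3 or shNT_OHT replicate 3, where 4.08%, 4.65% and 6.5% of all genes rose. Without shNT_OHT replicate 1 it was 5 of 8, where 13.3% of all genes rose. Under shCDK12, 2 of 8 fell with OHT, close to the 21.6% of all genes. Without shCDK12 replicate 1 it was 4 of 8, where 23.2% of all genes fell. In shCDK12_OHT against shNT_OHT, 6 of 8 were lower, where 22.2% of all genes were. Without shCDK12_OHT replicate 1 the count was 3 of 8, where 15.8% of all genes were lower. Without shCDK12_OHT replicate 2 or 3 it was 4 of 8, where 16.2% of all genes were lower in each fit. TCP1, the alpha subunit, stood at 141, 169 and 179 CPM in shNT, 216, 216 and 211 in shNT_OHT, 254, 279 and 245 in shCDK12 and 156, 155 and 168 in shCDK12_OHT. The shCDK12 libraries were the highest of all, and the shCDK12_OHT libraries lay among those of shNT. CCT5, the epsilon subunit, stood at 299.8, 281 and 278 CPM in shNT, 359, 359 and 422 in shNT_OHT, 340.2, 346 and 356 in shCDK12 and 259, 268 and 273 in shCDK12_OHT. Its shCDK12_OHT libraries were the lowest of all. CCT7, the eta subunit, stood at 102, 119 and 109 CPM in shNT, 163, 151 and 189 in shNT_OHT, 117, 97.9 and 102 in shCDK12 and 97.5, 115 and 115 in shCDK12_OHT, and was raised with OHT under shNT (log2 fold change 0.61 ± 0.14 (SE), adjusted p = 0.00735) while under shCDK12 the groups overlapped (log2 fold change 0.05 ± 0.10 (SE), adjusted p = 0.684). The interaction passed for TCP1 (-1.10 ± 0.15 (SE), adjusted p = 5.2e-06), CCT5 (-0.79 ± 0.13 (SE), adjusted p = 5.32e-05), CCT7 (-0.57 ± 0.17 (SE), adjusted p = 0.00903) and CCT2 (-0.47 ± 0.15 (SE), adjusted p = 0.0165). CCT8 was lower in shCDK12 than in shNT (log2 fold change -0.46 ± 0.09 (SE), adjusted p = 0.0001), opposite in direction to TCP1 (log2 fold change 0.68 ± 0.10 (SE), adjusted p = 1.85e-06). The call of TCP1 under shNT is near the threshold (adjusted p = 0.0492) and was lost in 9 of 14 alternatives.

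Prefoldin hands unfolded actin and tubulin to TRiC, and 3 of its subunits were in the set. PFDN2 stood at 25.5, 22.8 and 28.1 CPM in shNT, 59.2, 41.2 and 54.8 in shNT_OHT, 59.5, 40.5 and 45.7 in shCDK12 and 33.3, 28.2 and 34.3 in shCDK12_OHT. It passed in all 5 comparisons, with the largest OHT response of the 45 genes under shNT (log2 fold change 1.05 ± 0.21 (SE), adjusted p = 0.00387) and an interaction of -1.67 ± 0.25 (SE), adjusted p = 1.88e-05. PFDN6 stood at 33.7, 35.1 and 32.6 CPM in shNT, 47.0, 33.8 and 42.9 in shNT_OHT, 26.9, 24.9 and 25.0 in shCDK12 and 21.1, 22.2 and 22.5 in shCDK12_OHT. Both groups labelled shCDK12 were below both shNT groups (log2 fold change -0.92 ± 0.18 (SE), adjusted p = 0.00181 with OHT). Without OHT (log2 fold change -0.41 ± 0.16 (SE), adjusted p = 0.0269) that call was lost in 7 of 14 alternatives. PFDN2 had the same direction with OHT (log2 fold change -0.71 ± 0.17 (SE), adjusted p = 0.00669) and the opposite one without it (log2 fold change 0.94 ± 0.17 (SE), adjusted p = 4.21e-05). PFDN4, the third, passed in 0 comparisons by edgeR, at an unadjusted p under 0.05 or by DESeq2.

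All 4 mitochondrial genes fell with OHT under shCDK12, where 21.6% of all genes did, and they split between the shRNAs without OHT. That count was 1 of 4 (HSPD1) in the fit of all 12 libraries, where 16.2% of all genes fell. It was 2 of 4 without shCDK12_OHT replicate 2, where 18.7% of all genes fell. Under shNT, 2 of 4 rose with OHT (HSPD1 and TRAP1), where 9.37% of all genes did. Without shNT replicate 1, 2 or 3 the count was 0 of 4, where 4.66%, 4.08% and 4.65% of all genes rose. Without shNT_OHT replicate 2 or 3 the count was 1 of 4, where 12.5% and 6.5% of all genes rose. Without shNT_OHT replicate 1 it was 3 of 4, where 13.3% of all genes rose. HSPD1, the mitochondrial HSP60, stood at 222, 241 and 222 CPM in shNT, 277, 359 and 282 in shNT_OHT, 279.6, 330.2 and 315 in shCDK12 and 211, 211 and 232 in shCDK12_OHT. HSPE1, its HSP10 lid, stood at 14.8, 18.7 and 6.52 CPM in shNT, 10.7, 30.5 and 11.6 in shNT_OHT, 33.8, 45.8 and 36.6 in shCDK12 and 29.2, 22.6 and 26.3 in shCDK12_OHT. Both were higher in shCDK12 than in shNT (log2 fold change 0.43 ± 0.09 (SE), adjusted p = 0.000135 for HSPD1 and log2 fold change 1.44 ± 0.22 (SE), adjusted p = 3.58e-06 for HSPE1), while the 3 shNT_OHT libraries of HSPE1 spread from 10.7 to 30.5 CPM and its OHT response under shNT did not pass (log2 fold change 0.21 ± 0.42 (SE), adjusted p = 0.77).

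HSPA9, the mitochondrial HSP70, went the other way from HSPD1 and HSPE1 between the shRNAs without OHT. With OHT, HSPD1 was lower in shCDK12_OHT than in shNT_OHT (log2 fold change -0.46 ± 0.12 (SE), adjusted p = 0.0105), as HSPA9 was, a call lost without shCDK12_OHT replicate 1 or 2. HSPA9 stood at 413, 415 and 433 CPM in shNT, 442, 476 and 562 in shNT_OHT, 242, 238 and 225 in shCDK12 and 192, 199 and 211 in shCDK12_OHT, and all libraries labelled shCDK12 lay below all shNT libraries. The difference was log2 fold change -0.84 ± 0.08 (SE), adjusted p = 3.28e-09 without OHT and log2 fold change -1.28 ± 0.11 (SE), adjusted p = 1.81e-05 with it. TRAP1, the mitochondrial HSP90, stood at 22.3, 25.6 and 28.1 CPM in shNT, 37.3, 44.5 and 39.4 in shNT_OHT, 21.1, 21.0 and 20.5 in shCDK12 and 17.1, 13.9 and 16.5 in shCDK12_OHT. It was the lowest in shCDK12_OHT (log2 fold change -1.32 ± 0.19 (SE), adjusted p = 0.000271 against shNT_OHT), and its rise with OHT under shNT (log2 fold change 0.67 ± 0.21 (SE), adjusted p = 0.0391) was lost in 8 of 14 alternatives.

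**Figure D3:**
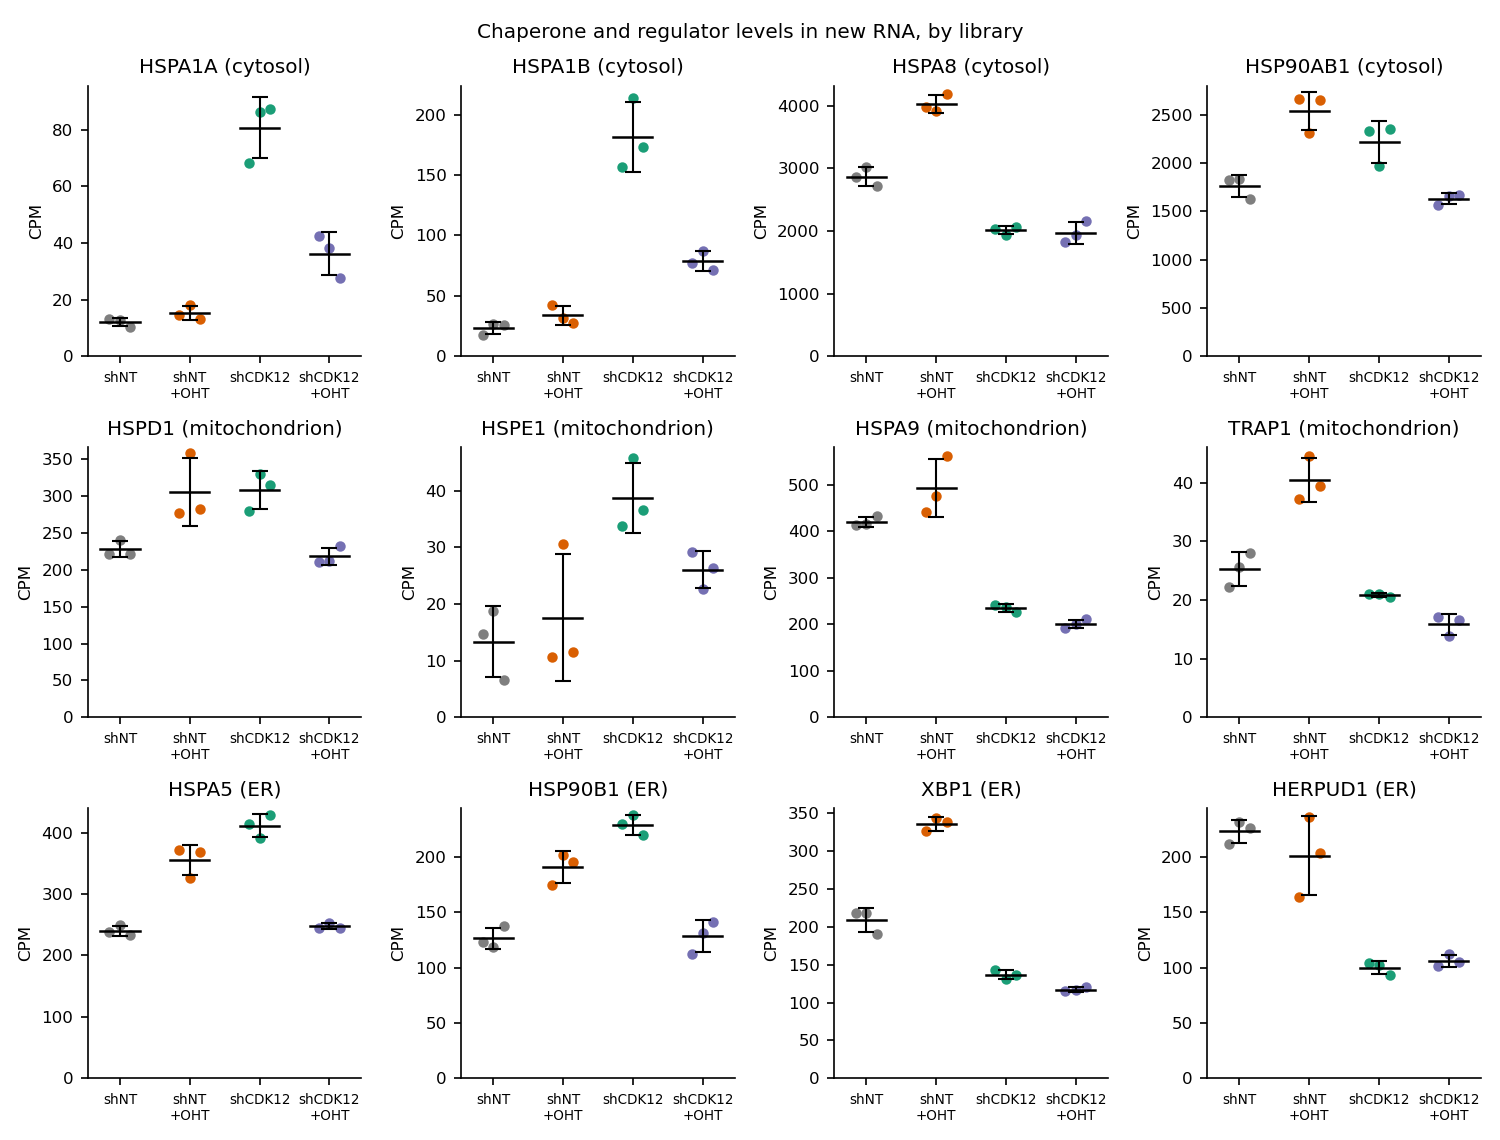
Level in CPM (vertical, from 0) of 12 genes in each library (dots) by group (horizontal), with the group mean as a line and the SD as error bars (n = 3). HSPA1A, HSPA1B and HSPE1 are highest in shCDK12, whereas HSPA8, HSPA9, TRAP1 and XBP1 are highest in shNT_OHT, and the shCDK12_OHT libraries of HSPA5 and HSP90B1 overlap those of shNT.

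In the ER, the HSP70 HSPA5, the HSP90 HSP90B1 and HYOU1 passed in all 5 comparisons with the same directions. HSPA5 stood at 238, 249 and 233 CPM in shNT, 371, 327 and 369 in shNT_OHT, 414, 392 and 429 in shCDK12 and 245, 253 and 244 in shCDK12_OHT. HSP90B1 stood at 124, 118 and 137 CPM in shNT, 175, 202 and 196 in shNT_OHT, 230.0, 238 and 219.8 in shCDK12 and 113, 132 and 141 in shCDK12_OHT. For both, OHT alone and the CDK12 shRNA alone gave higher levels than shNT, and the libraries with both overlapped shNT. HYOU1, the nucleotide exchange factor of HSPA5, stood at 112, 114 and 92.2 CPM in shNT, 199.9, 135 and 165 in shNT_OHT, 199, 172 and 189 in shCDK12 and 119, 122 and 124 in shCDK12_OHT and had its shCDK12_OHT libraries just above shNT. The interactions were the strongest of the set by p-value for HSPA5 (-1.30 ± 0.13 (SE), adjusted p = 1.11e-07) and HSP90B1 (-1.43 ± 0.15 (SE), adjusted p = 4.16e-07), and HYOU1 had one of -1.28 ± 0.18 (SE), adjusted p = 8.55e-06. Under shNT, OHT raised all 3 of them, with log2 fold changes of 0.57 ± 0.11 (SE), 0.59 ± 0.13 and 0.66 ± 0.16. That call was lost for HSP90B1 without shNT replicate 1 or 2 and for HYOU1 without shNT replicate 3. In shCDK12_OHT against shNT_OHT, the call of HYOU1 (log2 fold change -0.45 ± 0.14 (SE), adjusted p = 0.023) was lost in 5 of 14 alternatives (thinning, removal of length and GC trends, and leaving out any 1 shCDK12_OHT library), with values from -0.61 to -0.22, and those of HSPA5 and HSP90B1 were lost in 0.

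The other ER co-chaperones split. SDF2L1, which forms a complex with DNAJB11, was higher in shCDK12 than in shNT (log2 fold change 1.30 ± 0.24 (SE), adjusted p = 5.09e-05) and did not reach the count filter in shNT_OHT against shNT. DNAJB9 (ERdj4), which directs HSPA5 to ERN1, was higher in both groups labelled shCDK12 than in their shNT partners (log2 fold change 1.17 ± 0.15 (SE), adjusted p = 3.02e-07 without OHT and log2 fold change 0.86 ± 0.22 (SE), adjusted p = 0.00783 with it). DNAJB11 (ERdj3), another J-protein of HSPA5, was lower in both (log2 fold change -0.65 ± 0.14 (SE), adjusted p = 0.000283 and log2 fold change -0.82 ± 0.15 (SE), adjusted p = 0.00133).

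Among the ER lectins and protein disulfide isomerases, 1 gene of 5 passed below 0 in the interaction, the same share as the 20.0% of all genes. That gene was CALR. This calcium-binding lectin stood at 242, 242 and 234 CPM in shNT, 384, 259.9 and 324 in shNT_OHT, 384, 327 and 365 in shCDK12 and 269.6, 311 and 320.2 in shCDK12_OHT. Its interaction was -0.70 ± 0.17 (SE), adjusted p = 0.00189. CANX, its membrane-bound relative, was lower in shCDK12 than in shNT (log2 fold change -0.34 ± 0.09 (SE), adjusted p = 0.00194) and had an interaction of -0.08 ± 0.15 (SE), adjusted p = 0.672. PDIA3, the isomerase that works with both lectins, stood at 70.3, 57.2 and 61.1 CPM in shNT, 58.0, 66.8 and 75.4 in shNT_OHT, 87.5, 88.0 and 86.6 in shCDK12 and 62.8, 72.9 and 81.1 in shCDK12_OHT, and was higher in shCDK12 than in shNT (log2 fold change 0.47 ± 0.12 (SE), adjusted p = 0.00138). PDIA6 stood at 39.6, 47.8 and 48.6 CPM in shNT, 35.7, 41.2 and 46.4 in shNT_OHT, 36.8, 38.3 and 35.7 in shCDK12 and 35.2, 37.4 and 39.7 in shCDK12_OHT. PDIA4 and PDIA6 passed in 0 comparisons by edgeR, at an unadjusted p under 0.05 or by DESeq2.

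XBP1 had the direction of HSPA5 in 4 of the 5 comparisons. XBP1 stood at 218, 218 and 190.4 CPM in shNT, 326, 344 and 338 in shNT_OHT, 143, 131 and 137 in shCDK12 and 115, 117 and 120.1 in shCDK12_OHT. It rose with OHT under shNT (log2 fold change 0.68 ± 0.11 (SE), adjusted p = 0.00126), like HSPA5, and was lower in shCDK12_OHT than in shNT_OHT (log2 fold change -1.50 ± 0.10 (SE), adjusted p = 3.96e-06). Its interaction was -0.90 ± 0.13 (SE), adjusted p = 1.65e-05, and its drop with OHT under shCDK12 (log2 fold change -0.22 ± 0.08 (SE), adjusted p = 0.03) was lost in 8 of 14 alternatives. In shCDK12 against shNT it was lower (log2 fold change -0.62 ± 0.09 (SE), adjusted p = 2.13e-06), opposite to HSPA5. HERPUD1, which takes part in ER-associated degradation, stood at 212, 232 and 226 CPM in shNT, 164, 236 and 204 in shNT_OHT, 104, 102 and 93.6 in shCDK12 and 101, 112 and 106 in shCDK12_OHT. It was lower in the groups labelled shCDK12 (log2 fold change -1.16 ± 0.09 (SE), adjusted p = 9.63e-11 without OHT and log2 fold change -0.89 ± 0.14 (SE), adjusted p = 0.000533 with it) and did not pass for OHT under either shRNA.

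The new RNA of the sensors themselves stayed within the spread of the libraries, and the activity of their proteins was not measured. ATF6 stood at 75.4, 73.8 and 75.7 CPM in shNT, 75.2, 56.1 and 91.1 in shNT_OHT, 58.8, 84.8 and 75.7 in shCDK12 and 72.0, 71.9 and 79.6 in shCDK12_OHT, with log2 fold changes from -0.02 to 0.01. ERN1 stood at 24.1, 21.1 and 24.6 CPM in shNT, 22.6, 11.5 and 29.6 in shNT_OHT, 26.2, 17.7 and 20.4 in shCDK12 and 24.2, 20.5 and 21.0 in shCDK12_OHT, with log2 fold changes from -0.13 to 0.07. Neither passed in any of the 5 comparisons by edgeR, at an unadjusted p under 0.05 or by DESeq2, and the groups overlapped throughout. EIF2AK3 (PERK), the third sensor and outside the 46, passed in 0 comparisons, with an interaction of 0.15 ± 0.17 (SE), adjusted p = 0.475.

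Of the 6 ER genes whose window held an ER stress response element, 4 passed below 0 in the interaction (CALR, HSP90B1, HSPA5 and XBP1), and CANX and PDIA6 did not pass, where 24 of all 46 members and 20.0% of all genes passed below 0. Of the 5 genes with a 3-unit heat shock element, 3 passed below 0 (HSP90AB1, HSPA8 and HSPD1), and DNAJA1 and HSP90AA1 did not. HSPA1A and HSPA1B, with only the 2-unit form in the window, had the largest fold changes in shCDK12 against shNT. Responses differed among genes with the same motif, and XBP1 and HSPA5 went in opposite directions in shCDK12 against shNT. These matches give letters in a short window only, and whether the elements act on the genes here was not tested.

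The compartments were then set side by side. The median log2 fold change with OHT under shNT was 0.28 over the 27 cytosolic genes, 0.32 over the 4 mitochondrial genes and 0.05 over the 14 tested ER genes, against -0.03 over all genes. The ER value was 0.18 without shNT_OHT replicate 2, and the mitochondrial value 0.48 without shNT replicate 2. Under shCDK12 it was -0.20, -0.46 and -0.22, against 0.05 over all genes. In the interaction, 15 of 27 cytosolic, 3 of 4 mitochondrial and 6 of 15 ER genes passed below 0, where 20.0% of all genes did, with medians of -0.52, -0.80 and -0.31 against 0.10. In shCDK12 against shNT, 14 cytosolic genes were higher and 4 lower, 2 and 1 in the mitochondrion, and 7 and 4 in the ER, where 29.8% of all genes were higher and 32.8% lower, with medians of 0.23, 0.08 and -0.02 against -0.03. The cytosolic median in that comparison was 0.13 without HSPA1A and HSPA1B. The ER median was 0.53 once XBP1, ATF6 and ERN1 were left out, and it was 0.16 without shNT replicate 1 and 0.10 without shCDK12 replicate 1. With OHT the medians of shCDK12_OHT against shNT_OHT were -0.29, -0.87 and -0.17 against 0.04. No test between compartments was made, since genes of a compartment are not replicates.

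Per library, the mean log2(CPM + 1) of the 27 cytosolic genes was 7.21 ± 0.01 (SD, n = 3) in shNT, 7.51 ± 0.05 in shNT_OHT, 7.59 ± 0.04 in shCDK12 and 7.30 ± 0.04 in shCDK12_OHT. The 15 ER genes had means of 6.24 ± 0.03, 6.42 ± 0.06, 6.41 ± 0.02 and 6.13 ± 0.06 in the same order. In the mitochondrion the spread was wider, with 6.25 ± 0.17, 6.66 ± 0.28, 6.48 ± 0.08 and 6.06 ± 0.09. By this mean, each single condition lay above shNT in all 3 libraries for cytosol and ER. The combined condition lay below both single conditions in all 3. The cytosolic mean includes HSPA1A and HSPA1B, which were far higher in both groups labelled shCDK12 than in shNT. It was not recomputed without them. Its rise in shCDK12 therefore rests partly on them, and the place of shCDK12_OHT above shNT may depend on them. The cytosolic median log2 fold change in shCDK12 against shNT was 0.23 with them and 0.13 without. Summed CPM, which gives more weight to abundant genes, differed for shCDK12. In the cytosol it was 9573.7, 9383.6 and 9686.6 in shCDK12 and 9327.5, 9653.3 and 8996.6 in shNT, so these groups overlapped. In the mitochondrion its mean was 603 ± 29.8 (SD, n = 3) in shCDK12, below 687 ± 14.1 in shNT. In the ER it was 1971 ± 25.9, above 1690 ± 43.6. All 46 genes together took 1.16 to 1.19% of the counts in shNT, 1.42 to 1.48% in shNT_OHT, 1.21 to 1.27% in shCDK12 and 1.01 to 1.13% in shCDK12_OHT.

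**Figure D4:**
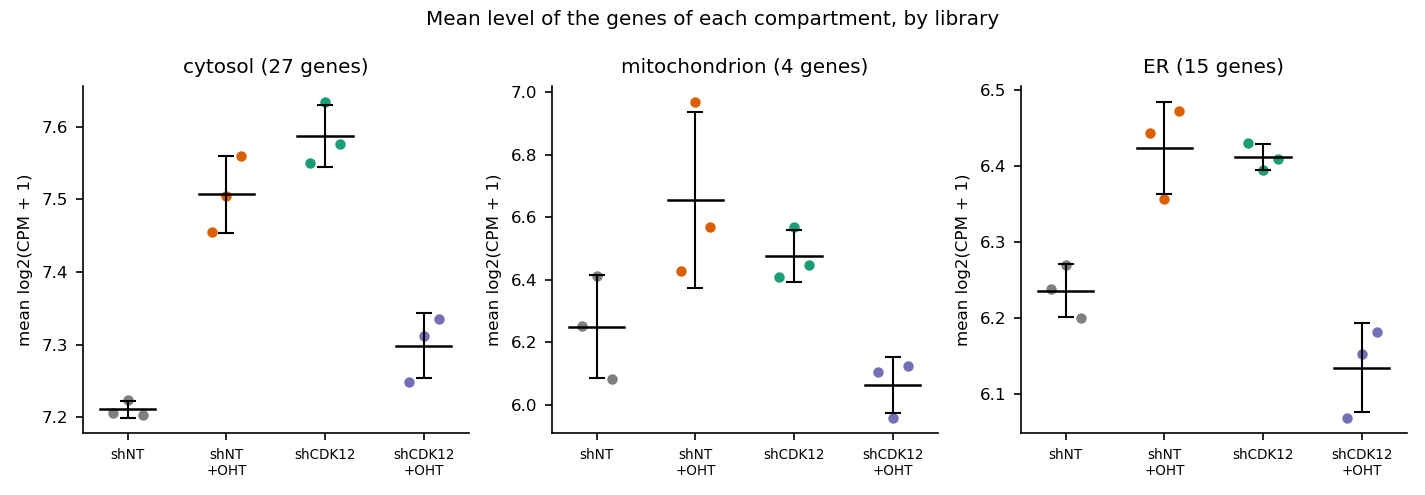
Mean log2(CPM + 1) of the genes of each compartment (vertical) in each library (dots) by group (horizontal), with the group mean as a line and the SD as error bars (n = 3). In all 3 panels shNT_OHT and shCDK12 lie above shCDK12_OHT on average, and the vertical axes do not start at 0.

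Other chaperone genes, listed for this work but outside the 46, were counted in the same way. Of 14 further mitochondrial genes tested in the interaction, 9 passed below 0 and 0 above, where 20.0% and 26.1% of all genes did, with a median of -0.90. PPIF, a mitochondrial cyclophilin, had an interaction of -1.94 ± 0.15 (SE), adjusted p = 3.88e-09, and GRPEL1, the nucleotide exchange factor of HSPA9, one of -1.41 ± 0.16 (SE), adjusted p = 7.13e-07. Both rose with OHT under shNT (log2 fold change 1.01 ± 0.12 (SE), adjusted p = 9.58e-05 for PPIF and log2 fold change 0.86 ± 0.13 (SE), adjusted p = 0.000518 for GRPEL1). Among 37 further cytosolic genes, 12 passed below 0 (32.4%) and 4 above (10.8%), with a median of -0.22. STUB1, a ubiquitin ligase that works with HSP70, had the largest of these in size (-2.78 ± 0.31 (SE), adjusted p = 6.25e-07). BAG1, a nucleotide exchange factor (-1.81 ± 0.19 (SE), adjusted p = 4.24e-07), and CDC37, which brings kinases to HSP90 (-1.76 ± 0.20 (SE), adjusted p = 9.53e-07), also passed below 0. DNAJB2, a J-protein with ubiquitin-binding motifs, went the opposite way (2.06 ± 0.14 (SE), adjusted p = 1.35e-09).

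Of 49 further ER genes tested in the interaction, 12 passed below 0 and 7 above, with a median of -0.07, and the shares of 24.5% and 14.3% stand against 20.0% and 26.1% of all genes. PDIA5, a protein disulfide isomerase, passed below 0 (-1.98 ± 0.30 (SE), adjusted p = 2.22e-05), as did TRIB3 (-1.29 ± 0.17 (SE), adjusted p = 3.61e-06) and PPP1R15A (-0.93 ± 0.15 (SE), adjusted p = 5.45e-05), which are induced through ATF4 when translation is attenuated. P4HB, the most common protein disulfide isomerase, had an interaction of -0.54 ± 0.17 (SE), adjusted p = 0.0161. DNAJC3, an ER J-protein, passed above 0 (0.56 ± 0.20 (SE), adjusted p = 0.0253). Under shNT, OHT raised 7 of 36, 4 of 13 and 5 of 47 of the further cytosolic, mitochondrial and ER genes, and lowered 1, 0 and 2, where 9.37% of all genes rose and 8.49% fell, and the 10.6% of ER genes that rose was near that share. In shCDK12 against shNT the lists had 20 of 37, 8 of 15 and 16 of 49 higher and 4, 1 and 12 lower, where 29.8% of all genes were higher and 32.8% lower, so the share of higher ER genes (32.7%) was near that of all genes.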

How the data were processed

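EU-seq counts of 12 libraries (3 per group) were used. The authors deposited whole-number counts per gene, one row per Entrez identifier. The submitters' processing notes name STAR 2.7.5c, featureCounts 1.4.5-p1 and hg19, and the strand setting and annotation are not given in the sources used here. Counting introns or overlapping genes would change the levels. Symbols came from RefSeq for 23284 of 23434 genes. Gene spans and GC content came from GRCh38, so no hg19 positions are given.

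Counts were scaled by TMM, genes with a mean normalised count of 32 or less were left out, and each pair of groups was tested by edgeR 4.0.16 (quasi-likelihood, R 4.3.3), with Benjamini-Hochberg adjustment over all genes tested. The interaction was fitted in all 12 libraries. Code was tested on simulated data. Alternatives were DESeq2 1.42.0, upper-quartile scaling, other filters, a replicate block, one fit of all libraries, thinning to 1251695 counts, removal of length and GC trends (loess by limma 3.58.1, span 0.3), and leaving out each library. Levels are CPM, and a library of 1251695 to 10447836 counts limits the precision of low genes. No 2 libraries of a group agreed within sampling noise (chi-square per degree of freedom of 2.63 or more).

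The 46 genes and the other lists were chosen with earlier results of these data known. Values per library are given for up to 2 genes per role with the smallest adjusted p under shNT, up to 2 in the interaction, and 11 fixed genes (HSF1, HSPA1A, HSPA1B, HSPA8, HSP90AB1, HSPD1, HSPE1, HSPA5, XBP1, ATF6 and ERN1), with HSPA9, HYOU1 and HSPA14 added after their values were seen. Of the other lists, the 2 with the smallest adjusted p in each of these comparisons and HSF2, EIF2AK3, P4HB and DNAJC3 are named.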

Additional observations from a re-analysis of the deposited data

Results flagged for a closer look

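The response to OHT differed between the shRNAs by the interaction term in 24 of the 46 genes (edgeR adjusted p under 0.05), and in each of them the response was lower under shCDK12. Over all genes tested, 20.0% passed below 0 and 26.1% above 0. Values are the log2 response under shCDK12 minus that under shNT. In TRiC/CCT and prefoldin the difference was -1.10 for TCP1, -0.47 for CCT2, -0.79 for CCT5, -0.57 for CCT7 and -1.67 for PFDN2. Among cytosolic HSP70 genes it was -1.40 for HSPA1A, -1.76 for HSPA1B, -0.52 for HSPA8 and -0.55 for HSPA14. HSP90 and its co-chaperones gave -0.97 for HSP90AB1, -0.38 for STIP1 and -1.10 for AHSA1, and the J-domain, small HSP and BAG genes -0.86 for HSPB1, -1.27 for DNAJC2 and -0.66 for BAG3. The mitochondrial genes gave -0.46 for HSPA9, -0.91 for HSPD1 and -1.08 for TRAP1. In the ER it was -1.30 for HSPA5, -1.43 for HSP90B1, -1.28 for HYOU1, -1.20 for SDF2L1, -0.70 for CALR and -0.90 for XBP1. In every alternative in which they were tested, 20 of these 24 calls passed the threshold, and the exceptions were STIP1, CCT2, HSPB1 and SDF2L1.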

How the results depend on the processing

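The 46 genes in 5 comparisons gave 3408 recomputed values, of which 3202 kept their direction and side of the threshold, 137 lost significance, 67 gained it and 2 reversed. Both reversals came when length and GC trends were removed, in shCDK12_OHT against shNT_OHT, where HSPB1 became 0.36 and CALR 0.24. Leaving out 1 library moved the number of genes called in shNT_OHT against shNT between 6 and 21. In those fits the share of all genes that rose ran from 4.08% to 13.3%. The counts of the other comparisons stayed within 1.5 times of theirs in every alternative.

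Replicate numbers were not taken as pairs. Deviations of same-numbered libraries correlated at -0.10 to 0.33 (median 0.03, 3 of 18 pairs over 0.1) and those of different numbers at -0.36 to 0.09. With the replicate block, 12 genes were called in shNT_OHT against shNT, 26 in shCDK12_OHT against shCDK12, 32 in shCDK12 against shNT, 23 in shCDK12_OHT against shNT_OHT and 25 in the interaction. These counts join both directions. In the same order, 8.67, 28.2, 30.4, 23.0 and 26.8% of all genes passed above 0 with the block. The shares below 0 were 8.65, 21.9, 33.6, 19.5 and 20.3%.

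The medians of compartments moved most. Thinning, which tested fewer genes, gave 0.50 for the mitochondrion and 0.22 for the ER in shNT_OHT against shNT, 0.49 and 0.28 in shCDK12 against shNT, -0.43 for the ER in shCDK12_OHT against shNT_OHT, and -0.48 for the ER in the interaction. For the other moves below the cause was not tested. Without the 4 regulators the ER median was 0.53 in shCDK12 against shNT and -0.29 in shCDK12_OHT against shNT_OHT. Upper-quartile scaling moved the ER median of the interaction to -0.43, while the median of all genes went from 0.10 to -0.02. Removing length and GC trends gave -0.66 for the mitochondrion in the interaction. Leaving out 1 library gave 0.30 to 0.48 for the mitochondrion and 0.0092 to 0.18 for the ER in shNT_OHT against shNT, -0.0453 to 0.16 for the ER in shCDK12 against shNT, -0.34 to -0.11 for the ER in shCDK12_OHT against shNT_OHT, and -0.98 to -0.64 for the mitochondrion and -0.37 to -0.18 for the ER in the interaction.

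Over all genes in shNT_OHT against shNT, 936 rose and 848 fell, against 1561 and 1661 in the fit of all 12 libraries and 393 and 269 without shNT replicate 2. Thinned to equal depth, 39 to 42 of the 46 genes could be tested, and SDF2L1 was tested in 0 comparisons, so at this depth a difference in such low genes was not detectable.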
